A study of Homo sapiens with 6 samples.

Results

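The 10 members described here are microRNA genes of 3 genomic clusters: MIR302A, MIR302B, MIR302C, MIR302D and MIR367 of the miR-302 cluster on chromosome 4, MIR371A, MIR372 and MIR373 of the miR-371 to miR-373 cluster on chromosome 19, and MIR512-1 and MIR517A, which stand for the placental cluster C19MC on chromosome 19. The rule that defines them uses names and positions and no methylation value, and they are 10 of the 3041 microRNA hairpins placed on chromosomes 1 to 22 and X of GRCh37. The clusters with 20 kb upstream of each covered 367 of 6070870 windows of 500 bp. Cytosine methylation at CpG sites was measured by whole-genome bisulfite sequencing in H9, an established human embryonic stem cell (ESC) line, from 3 conventional and 3 reset samples, with 1 library each. Conventional cells were grown on mouse embryonic fibroblasts (MEFs) with 10 ng/ml bFGF and 20% KSR as the medium supplements. Reset cells came from H9 cells transfected with NANOG and KLF2, both inducible and switched on with 1 μM doxycycline (DOX), and they were then kept on MEFs without DOX in t2iL+Gö, that is 1 μM CHIR99021, 1 μM PD0325901, LIF and 5 μM Gö6983, which inhibits protein kinase C. All cultures were held at 5% oxygen. A single cell line was used, and the sources do not say whether the reset libraries came from separate resettings, so a p-value here speaks only for these libraries. Those of the quasi-binomial model also rest on the number of calls and on a spread estimated partly from all windows of the fit.

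A microRNA is cut from a hairpin in a longer transcript and pairs with messenger RNAs mainly through its seed, bases 2 to 8 of the mature strand, which lowers their translation and stability. The microRNAs of the miR-302 cluster are abundant in human ESC, are under the control of POU5F1, SOX2 and NANOG, and favour passage from the first growth phase of the cell cycle into DNA replication. MIR372 and MIR373 carry the same seed and are also known from ESC and germ cell tumours. C19MC is a primate-specific array of related hairpins transcribed as a single unit in the placenta. It is imprinted there, with a promoter that is methylated on the maternal allele and a transcript made from the paternal allele. CpG methylation of a CpG-dense promoter generally goes with a silent transcript, whereas methylation of a transcribed body does not. RNA was not analysed here, and the values below are DNA methylation only.

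The mature strands from the 3′ arms are printed because the seed is what ties the 3 loci together, although their DNA was found in very different methylation states. Sequences are from RefSeq (GRCh38.p14), 5′ to 3′, with the seed in capitals.
miR-302a-3p: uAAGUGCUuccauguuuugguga
miR-302b-3p: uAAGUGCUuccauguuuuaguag
miR-302c-3p: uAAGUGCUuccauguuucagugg
miR-302d-3p: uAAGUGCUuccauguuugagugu
miR-372-3p: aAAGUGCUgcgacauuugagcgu
miR-373-3p: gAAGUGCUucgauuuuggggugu
miR-371a-3p: aAGUGCCGccaucuuuugagugu
miR-512-3p: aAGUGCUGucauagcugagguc
miR-517a-3p: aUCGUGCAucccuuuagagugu
miR-367-3p: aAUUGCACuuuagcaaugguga
The seed AAGUGCU was shared by 6 of the 10 members. It occurred in 12 of the 2545 mature microRNAs of the table: 4 of the miR-302 cluster, 2 of the miR-371 to miR-373 cluster, 5 of C19MC (MIR520A to MIR520E) and 1 elsewhere, MIR302E. The 3′ strands of MIR371A and MIR512-1 hold a similar stretch that starts 1 base nearer to the 5′ end.

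The hairpins of the miR-302 cluster lie on the minus strand of chromosome 4 between 113569030 and 113569713. Each lies in an exon of the host transcript MIR302CHG and, on the opposite strand, in an intron of LARP7, which encodes a binding protein of the 7SK RNA. MIR302B was not in the annotation and was placed by the only match of its RefSeq hairpin on the chromosome (113569641 to 113569713). MIR371A (54290929 to 54290995), MIR372 (54291144 to 54291210) and MIR373 (54291959 to 54292027) lie on the plus strand of chromosome 19 within a host lncRNA, the first 2 in its intron and MIR373 in an exon. MIR371A and MIR372 also overlap an exon of an antisense lncRNA. MIR512-1 (54169927 to 54170024) and MIR517A (54215522 to 54215608) lie in introns of a lncRNA that spans 54151309 to 54267453 on the plus strand and contains the C19MC hairpins. The RefSeq hairpin of MIR512-1 matched 2 places on the chromosome, its own and that of MIR512-2, so reads from these copies could be confused.

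The windows around the annotated starts of the 3 host transcripts are shown because transcription of each cluster is annotated to begin there and the windows differ widely in their CpGs. Each runs from 250 bases upstream to 50 bases from the start on, in GRCh37, 5′ to 3′ on the strand of the transcript, with the CpGs in capitals.
C19MC host, chr19:54151059-54151358, plus strand: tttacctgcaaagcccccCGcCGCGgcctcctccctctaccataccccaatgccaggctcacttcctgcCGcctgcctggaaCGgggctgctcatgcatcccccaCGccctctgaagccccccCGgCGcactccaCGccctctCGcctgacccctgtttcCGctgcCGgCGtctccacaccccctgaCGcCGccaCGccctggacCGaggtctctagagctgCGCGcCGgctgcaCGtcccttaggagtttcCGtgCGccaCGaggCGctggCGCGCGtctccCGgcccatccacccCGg
miR-371 host, chr19:54289932-54290231, plus strand: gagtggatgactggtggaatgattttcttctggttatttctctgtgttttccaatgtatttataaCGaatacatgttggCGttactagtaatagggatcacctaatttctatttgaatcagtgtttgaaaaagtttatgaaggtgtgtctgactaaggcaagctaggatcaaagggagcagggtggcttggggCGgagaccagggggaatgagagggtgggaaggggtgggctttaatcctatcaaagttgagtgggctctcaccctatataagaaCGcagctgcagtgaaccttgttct
miR-302 host, chr4:113571158-113571457, minus strand: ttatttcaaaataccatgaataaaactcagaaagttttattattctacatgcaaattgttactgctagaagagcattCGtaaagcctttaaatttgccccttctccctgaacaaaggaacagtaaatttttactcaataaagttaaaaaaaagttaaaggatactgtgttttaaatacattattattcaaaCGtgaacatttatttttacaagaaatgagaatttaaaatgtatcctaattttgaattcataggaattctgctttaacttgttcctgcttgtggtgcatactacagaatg
The C19MC window held 30 CpGs and 71% G and C, more CpGs than 77.6% of 34943 RefSeq start windows of the same length. The miR-371 window held 4 CpGs and the miR-302 window 2, below the median of 14. In the C19MC window the level was 95.3, 91.2 and 98.1% in the conventional libraries and 4.65, 8.33 and 1.08% in the reset libraries (34 to 106 calls per library). In the miR-371 window it was 95.8, 84.6 and 91.7% against 0% in each reset library, where 0 of 35 calls allow a level of up to 8.57% (5 to 24 calls per library). The miR-302 window was low in both cell types, at 7.14, 12.5 and 16.7% in conventional and 9.09% in each reset library, with 8 to 14 calls per library. On either strand, the octamer ATGCAAAT, the site of POU factors, occurred in the miR-302 window alone among the 3, starting 202 bases upstream of the annotated start, and in 1.77% of all start windows. The KLF box CCACACCC occurred in the C19MC window alone, from 76 bases upstream, and in 3.28% of all. The TATA box letters TATAAA occurred in the miR-371 window on the reverse strand only, and in 11.6% of all. Only these exact letters were searched for each box, and variants were not. No match overlapped another. These are matches of letters and not measured sites.

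The 1-kb windows centred on the hairpins of the 9 members that could be tested fell into 3 states. The 5 windows of the miR-302 cluster were unmethylated in both cell types, the 3 windows of the miR-371 to miR-373 cluster went from almost full methylation to almost none, and MIR517A kept an intermediate level in reset cells. For MIR302A, MIR302C, MIR302D and MIR367 the level was 0% in each of the 6 libraries, and for MIR302B it was 0, 0 and 2.56% in conventional and 0% in each reset library. These 5 windows overlap one another in part and rest on 5 or 6 CpGs each, so they share calls and are not independent measurements. For MIR302A, 0 of 118 calls in conventional cells and 0 of 74 in reset cells allow levels of up to 2.54 and 4.05%, counting error only.

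MIR372 had levels of 91.5, 95.9 and 97.7% in the conventional libraries and 0, 0 and 1.89% in the reset libraries. The groups lay far apart, with 95.0% ± 3.19 (SD, n = 3) against 0.629% ± 1.09, and the fall passed the test (adjusted p = 2.41e-08, quasi-binomial model with Benjamini-Hochberg adjustment over all hairpin windows). MIR371A went from 91.1, 91.8 and 96.1% to 4.08, 2.97 and 0% (adjusted p = 2.00e-08 in the same model). MIR373 went from 95.0, 96.1 and 91.7% to 0, 4.65 and 11.1% (adjusted p = 2.14e-07 in the same model). The windows of MIR371A and MIR372 overlap and share CpGs, as do those of MIR372 and MIR373, so they are not independent measurements. Of the 2504 hairpin windows tested, MIR372 had the largest fall, 0.559% had a larger fall than MIR371A, and 0.839% a larger fall than MIR373.

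MIR517A had 90.9, 98.2 and 98.6% in the conventional libraries and 47.1, 40 and 57.1% in the reset libraries. It fell by 47.8 points (adjusted p = 2.37e-06 in the quasi-binomial model), but 60.5% of the tested hairpin windows fell further. MIR512-1 was not tested, because the shallowest library had 9 calls and the test asked for 10. Its levels were 23.1, 45.8 and 47.1% in conventional and 14.3, 0 and 0% in reset cells. With at least 5 calls it was tested and was lower in reset cells (adjusted p = 0.00278, quasi-binomial model). In conventional cells the levels of MIR371A, MIR372, MIR373 and MIR517A overlapped and their order is within the spread, MIR512-1 stood below them, and the miR-302 windows stood lowest. In reset cells MIR517A stood above all the others, whose levels overlapped.

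Of the 9 member windows tested, 4 were lower in reset cells, 0 were higher and 5 did not pass, against 93.1% lower and 1.04% higher among all hairpin windows tested. Among the tested members the reset libraries all lay under the conventional ones for the same 4, against 92.6% of all. The 5 that did not pass are those of the miR-302 cluster. Of the 2504 windows, 5 were at 0% in all 6 libraries, and 4 of these were miR-302 windows, which share calls. An exact 0 depends on the number of calls, and these 4 had 19 to 48 per library. MIRLET7I, with 104 to 231 calls per library, was at 0.603% in conventional and 1.19% in reset cells. Low windows were more common, with 187 of the 2504 under 20% in conventional cells. A fall from at least 80% to under 10% was seen in 120 of 1986 hairpin windows, among them the 3 of the miR-371 to miR-373 cluster.

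**Figure D1:**
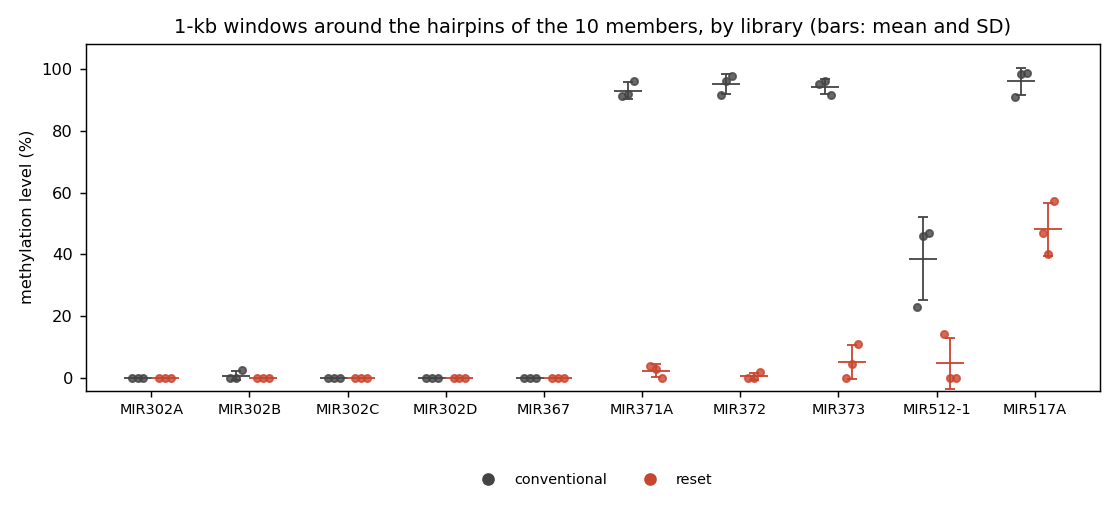
Methylation level (%) of the 1-kb window around each member's hairpin, 1 point per library (black, conventional; red, reset), with bars for the mean and SD of 3 libraries. The miR-302 windows lie at or near 0 in both cell types, MIR371A, MIR372 and MIR373 go from above 90% to at most 11.1%, and MIR517A remains at 40 to 57.1%.

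CpGs inside the hairpins themselves were few. Of the 5 hairpins of the miR-302 cluster only MIR302A holds a CpG, which had 0 methylated calls of 25 in conventional and of 15 in reset cells. The 2 CpGs of MIR372 had 100% of 14 calls methylated in conventional and 0% of 13 calls in reset cells, with the libraries of a group summed. The 2 CpGs of MIR373 went from 84.2% of 19 calls to 0% of 17 calls. The CpG of MIR517A had 94.1% of 17 calls methylated in conventional and 55.6% of 9 in reset cells. The 2 CpGs in MIR512-1 had 0% of 6 calls methylated in conventional and 0% of 4 in reset cells, too few calls to give a level.

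Genes with the seed AAGUGCU in the 3 clusters were thus found in 3 states. The 4 tested windows of the miR-302 cluster lay at 0 to 0.855% in conventional and 0% in reset cells. MIR372 and MIR373 went from 94.3 to 95.0% down to 0.629 to 5.25%. The 5 C19MC genes with this seed, MIR520A to MIR520E, went from 81.4 to 95.3% down to 32.9 to 51.2%. Each of these 5 was lower in the test, as were 93.1% of all hairpin windows tested. MIR302E, the carrier of this seed outside the clusters, went from 86.0 to 5.90%.

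Across the miR-302 cluster and the 20 kb upstream of it, 20 of 42 windows of 500 bp had at least 10 calls in every library. Here and below, the lowest and highest levels and the largest falls of 500-bp windows are those among windows tested, and windows with fewer calls can lie beyond them. Of these, 18 were lower in reset cells, 0 were higher and 2 did not pass, where 95.9% of all windows tested in the genome were lower and 0.737% higher. The groups did not overlap in 18 of the 20, against 95.1% of all windows. The 2 that did not pass were the window over MIR367, MIR302D and MIR302A (113569001 to 113569500), at 0% in all 6 libraries, and the window at 113571501 to 113572000, with 7.14, 5.00 and 0% in conventional and 0% in each reset library (adjusted p = 0.0745, quasi-binomial model over all windows). The latter is the window upstream of the hairpins with the lowest level in reset cells.

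In conventional cells the level was low in the first 2.5 kb upstream of the miR-302 hairpins, which holds the start of MIR302CHG, and then rose through intermediate levels. In steps of 2.5 kb going upstream from MIR302B, the conventional level was 8.76% ± 4.15, 23.3% ± 2.01 and 40% ± 7.94 (SD, n = 3), and 94.5% ± 2.39 in the step from 7.5 to 10 kb. The reset level in the same steps was 1.77% ± 0.630, 5.79% ± 2.79, 14.2% ± 2.94 and 31.1% ± 8.93. These 4 steps held only 15, 14, 20 and 8 CpGs. The first kb upstream held 5 CpGs, with 0, 3.23 and 2.13% in conventional and 0% in reset cells.

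Beyond this stretch, upstream of the cluster, the conventional windows were nearly full. The window at 113580501 to 113581000 had the highest reset level of the region, with 56.3, 54.5 and 91.3% against 96.6% in each conventional library, and the reset libraries were spread widely. The window at 113586501 to 113587000 had the largest fall, from 98.8% ± 2.06 to 18.8% ± 5.15 (adjusted p = 2.81e-09, quasi-binomial model). Over the whole 20 kb the level was 68.0, 71.0 and 67.0% in conventional and 32.6, 28.3 and 28.8% in reset cells, a fall of 38.7 points where chromosome 4 fell by 58.4. The difference of 19.7 points between these changes gave p = 0.1 in the two-sided exact permutation test, the smallest that 3 libraries against 3 can give. The 20 kb started lower: its level minus that of chromosome 4 was -17.65 points in conventional and 2.02 points in reset cells. Relative to the conventional level the loss was 56.4% for the 20 kb and 67.7% for chromosome 4.

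Across the miR-371 to miR-373 cluster and its 20 kb upstream, 38 of 44 windows were tested, of which 37 were lower, 0 were higher and 1 did not pass, near the 95.9% lower over the genome. The median level over the tested windows went from 92.7 to 9.44%, against 92.0 to 32.7% over all windows of the genome. Of the 31 windows at 80% or more in conventional cells, 15 were under 10% in reset cells, or 48.4%, where the share was 6.89% over the genome and 4.22% over chromosome 19. Over the hairpins, the window at 54291001 to 54291500, which holds MIR372, had 100, 96.4 and 98.5% in conventional and 0% in each reset library (adjusted p = 1.13e-12, quasi-binomial model). There 0 of 144 calls allow up to 2.08% if each call is independent. Neighbouring CpGs can share reads, so the true limit can be higher. This window had the largest fall and the lowest reset level of the hairpin stretch. The highest reset level there, 3.87% ± 3.49, was in the window of MIR371A at 54290501 to 54291000.

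The low reset level extended upstream of MIR371A over the start of the host lncRNA. It was 2.01% ± 1.63 in the 2.5 kb next to the hairpin, 1.61% ± 0.279 in the next 2.5 kb and 19.1% ± 3.26 from 5 to 7.5 kb upstream. From 7.5 to 10 kb it was 40.5% ± 4.54, and the window at 54281501 to 54282000 in this step had the highest reset level of the region, with 68.8, 45 and 40.7%. In conventional cells these 4 steps lay at 90.0, 95.6, 94.3 and 89.1%. The window at 54289501 to 54290000, which reaches into the first kb upstream with 72 of its 500 bp, went from 96.2, 96.5 and 98.2% to 0% in each reset library. There 0 of 166 calls allow up to 1.81%, again only if each call is independent. The largest fall upstream was at 54286501 to 54287000, from 98.9% ± 1.93 to 1.71% ± 1.51.

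A second low stretch lay farther upstream of MIR371A, where conventional cells also had intermediate levels. From 12.5 to 15 kb upstream the level was 66.2% ± 0.667 in conventional and 6.30% ± 3.24 in reset cells. The window at 54276501 to 54277000 there, like that at 54289501 to 54290000, had no methylated call in reset cells, with 50, 50 and 38.1% in conventional and 0% in each reset library, where 0 of 37 calls allow up to 8.11%. The window beside it at 54276001 to 54276500 was the 1 that did not pass, with 28.6, 17.9 and 35.5% against 8.33, 0 and 18.5% (adjusted p = 0.0506, quasi-binomial model).

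As a whole, the hairpin stretch of the miR-371 to miR-373 cluster had 97.5, 95.4 and 97.7% in conventional and 0, 0 and 4.35% in reset cells. Its 20 kb upstream had 88.8, 86.6 and 88.5% against 15.6, 15.7 and 14.99%. The upstream part fell by 72.6 points where chromosome 19 fell by 46.4 and the 20 kb upstream of C19MC fell by 47.0. It thus changed by -26.2 and -25.6 points relative to them. Both differences were larger than the spread between libraries, and both gave the smallest possible p of 0.1 (two-sided exact permutation test). Of the 48 CpGs of the hairpin stretch, 24 had at least 5 calls in each group. All 24 had 0 methylated calls in the summed reset libraries, and 23 had at least 80% in conventional cells. CpGs from 54291562 to 54291713 had no call in conventional cells. Among these, 54291659, 54291666, 54291683 and 54291691 had methylated calls in reset cells, with 1 to 4 calls each. Calls per CpG in the stretch were 0.478 times the library average in conventional and 0.653 times in reset cells.

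**Figure D2:**
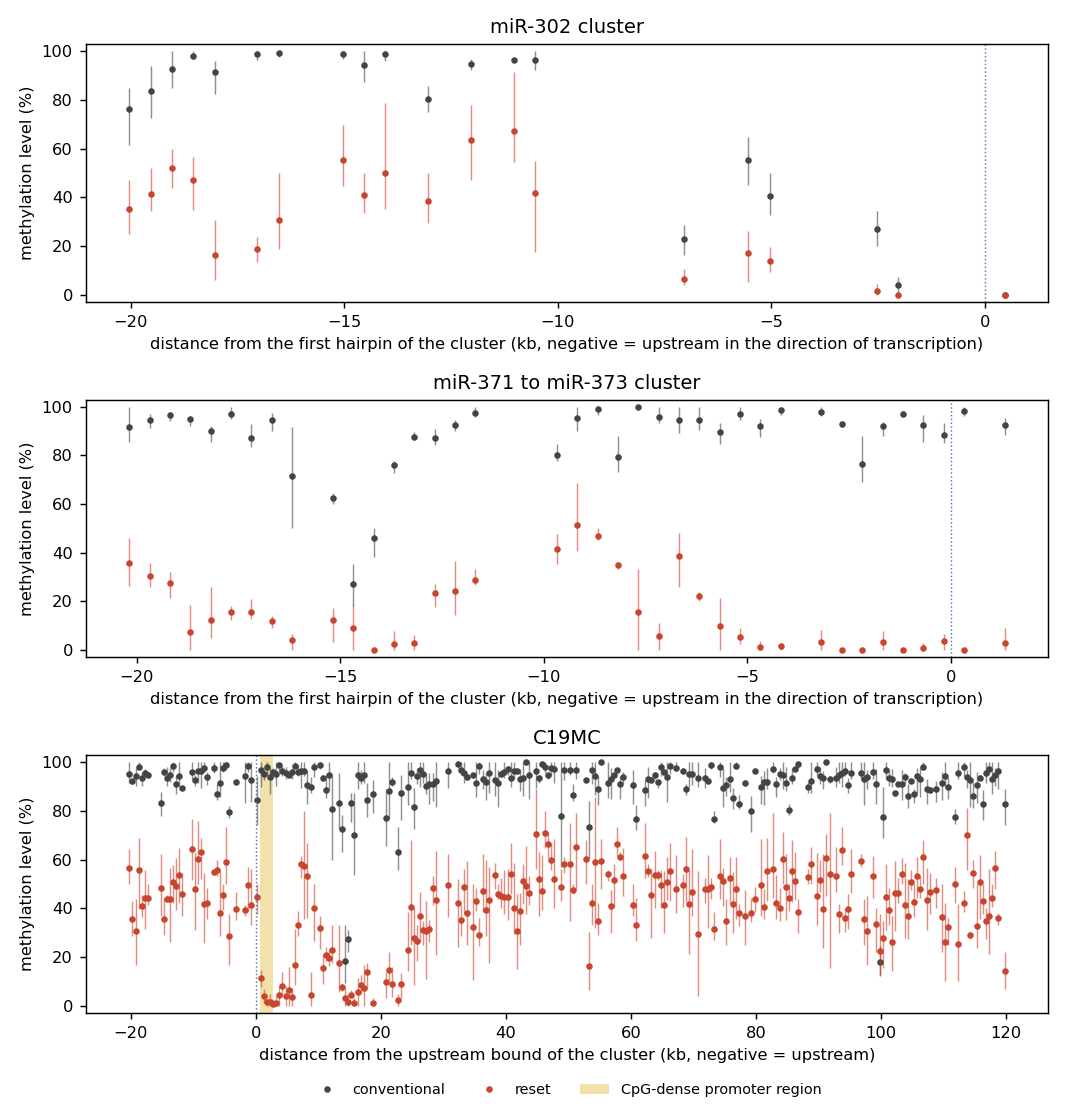
Methylation level (%) of tested 500-bp windows along the 3 clusters, against distance in kb from the first hairpin (miR-302 and miR-371 to miR-373 clusters, in the direction of transcription) or from the upstream bound of C19MC. Points are means and vertical lines ranges of 3 libraries (black, conventional; red, reset). The miR-302 windows decline toward the hairpins in both cell types, near the miR-371 hairpins the windows approach 0 in reset cells but not in conventional cells, and in C19MC the reset level is near 0 over the CpG-dense promoter region (yellow) and 37.6% over the cluster as a whole.

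C19MC was taken from 54150000 to 54270000. The longest CpG-dense stretch at its upstream end, by GC content and CpG ratio, ran from 54150722 to 54152795 (2074 bp, 131 CpGs) and contains the annotated start of the host lncRNA. This promoter region had 97.4, 93.4 and 97.2% in conventional and 3.13, 3.77 and 1.59% in reset cells. It fell by 93.2 points, from 96.0% ± 2.24 to 2.83% ± 1.12, a loss of 97.1% of its conventional level. The body of the cluster, which includes this region (131 of its 2236 CpGs), fell by 53.4 points, from 91.0% ± 0.554 to 37.6% ± 0.697, and the 20 kb upstream by 47.0 points, from 92.6% ± 0.770 to 45.6% ± 0.792. The change of the promoter region minus that of the body was -39.7 points, and minus that of the upstream part -46.2 points, each with p = 0.1, the smallest possible, in the two-sided exact permutation test.

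The 5 windows of 500 bp that overlap the CpG-dense promoter region were all lower in reset cells, as were 95.9% of all windows tested. The window at 54150501 to 54151000 had the highest reset level among them, with 14.7, 7.69 and 11.4% against 100, 90.0 and 100% in conventional cells. The next, at 54151001 to 54151500, holds the host start and went from 96.1, 92.6 and 96.9% to 3.51, 6.90 and 0.917%. The window at 54151501 to 54152000 had the largest fall among the tested windows of C19MC, from 100, 100 and 94.7% to 2.63, 0 and 1.67% (adjusted p = 7.14e-12, quasi-binomial model). At 54152001 to 54152500 the levels were 97.4, 86.8 and 97.7% against 5.00, 0 and 0%. At 54152501 to 54153000 they were 97.4, 93.5 and 97.5% against 0, 2.63 and 0%, the lowest reset level among the tested windows of C19MC. No library of reset cells reached the level of any conventional library in these windows, which held for 95.1% of all windows tested. Of the 58 CpGs of the region with at least 5 calls in each group, all 58 had at least 80% methylated calls in conventional cells, and 47 had none in reset cells.

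The region had fewer calls per CpG than the average of each library, 0.510 times in conventional and 0.590 times in reset cells, and 117 of its 131 CpGs had a call. Its levels rest on 160 to 267 calls per library. The calls do not distinguish the parental alleles.

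**Figure D3:**
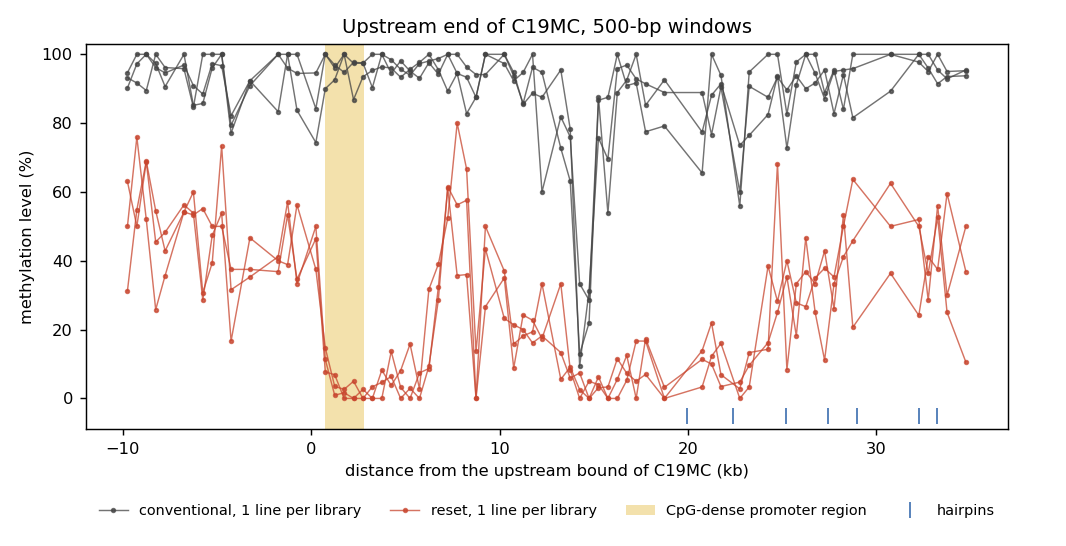
Methylation level (%) of tested 500-bp windows at the upstream end of C19MC, 1 line per library (black, conventional; red, reset), against distance in kb from the upstream bound; lines bridge windows without enough calls, ticks mark hairpins and yellow the CpG-dense promoter region. In each reset library the level is at most 14.7% within that region, rises to between 52.4 and 61.5% in the window 7.25 kb from the bound, and is low again toward MIR512-1 and MIR512-2.

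Downstream of the CpG-dense promoter region the low reset level did not end at once. The first 5 kb from the upstream bound had 6.19% ± 0.721 in reset cells and the next 5 kb 27.2% ± 5.97. From 15 to 20 kb the reset level was 6.08% ± 0.694 and from 20 to 25 kb, which holds MIR512-2, it was 13.3% ± 5.01. The hairpin of MIR512-1 lies across the border of these steps. In conventional cells these stretches had 85.1% ± 1.03 and 82.2% ± 0.350. From 30 kb onward all 5-kb steps lay between 38.4 and 58.8% in reset cells, among them the step of MIR517A at 47.6% ± 5.38.

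C19MC with its upstream 20 kb held 225 tested windows of 281, of which 224 were lower, 0 were higher and 1 did not pass, near the 95.9% lower over the genome. The exception, at 54249501 to 54250000, was low in both cell types, with 12, 16.9 and 24.6% in conventional and 37.5, 17.6 and 12.5% in reset cells (adjusted p = 0.538, quasi-binomial model). The median over the tested windows went from 93.8 to 43.5%. Of 210 windows at 80% or more in conventional cells 18 were under 10% in reset cells, 8.57% against 6.89% over the genome, and all 18 lay in the body and none in the 20 kb upstream. The window with the highest reset level, at 54196001 to 54196500, had 98.1% ± 2.22 in conventional and 71.0% ± 7.98 in reset cells. Upstream of the cluster the reset levels of tested windows lay between 28.6% (54145501 to 54146000) and 64.6% (54139501 to 54140000), and the largest fall was from 94.3% ± 3.60 to 30.9% ± 13.6 at 54130501 to 54131000.

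Of the 46 hairpins annotated in C19MC, 44 had windows that could be tested, and all 44 were lower in reset cells, where 93.1% of all hairpin windows were. Windows of some neighbouring C19MC hairpins overlap in part, so not all 44 are separate measurements. Their median went from 93.0 to 46.6%, against 90.9 to 33.1% over all hairpin windows. The lowest was MIR512-2, the near-identical neighbour of MIR512-1, with 52.9, 65.5 and 69.4% in conventional and 9.09, 3.45 and 0% in reset cells. The largest falls were those of MIR516A1, from 95.1% ± 4.42 to 27.2% ± 16.9, and MIR1323, from 88.7% ± 4.16 to 27.4% ± 7.61. Away from the upstream end, the C19MC hairpins thus had reset levels of 27.2 to 58.7%.

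**Figure D4:**
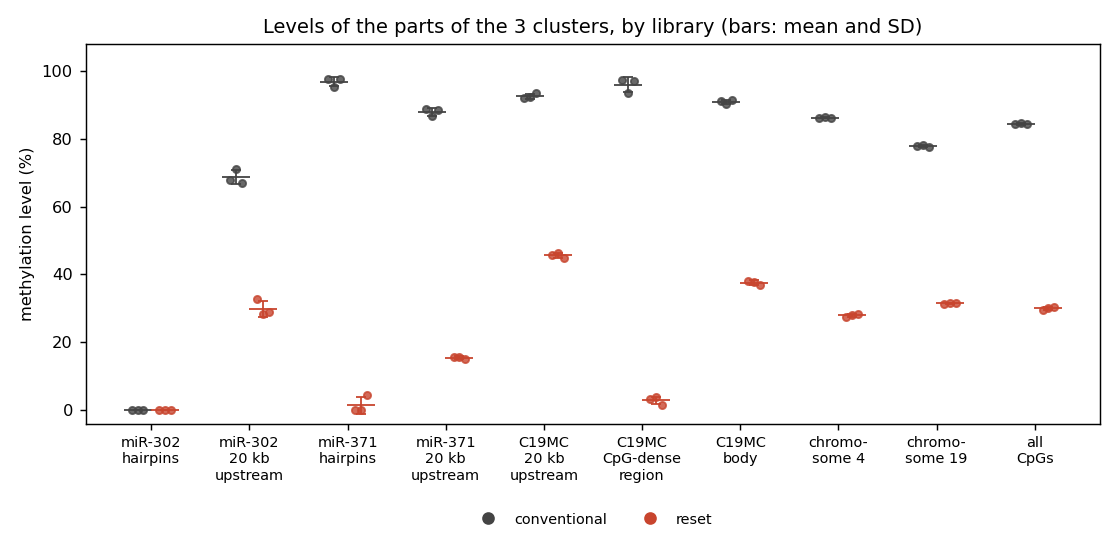
Methylation level (%) of the parts of the 3 clusters beside chromosomes 4 and 19 and all CpGs, 1 point per library (black, conventional; red, reset), with bars for the mean and SD of 3 libraries. The miR-371 hairpins and the CpG-dense region of C19MC fall by 95.4 and 93.2 points, whereas all CpGs together fall by 54.4 points.

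All 10 comparisons of change between parts and their surroundings gave the smallest possible p, 0.1 before and after Benjamini-Hochberg adjustment (two-sided exact permutation tests), so none can pass a threshold of 0.05 in this design. The change of the body of C19MC minus that of chromosome 19 was -7.06 points, and minus that of its own 20 kb upstream -6.45 points, each without overlap between the libraries. The body started higher than the chromosome, and relative to the conventional level the losses were close, 58.7% for the body and 59.6% for chromosome 19. Relative coverage of reset against conventional cells was 0.988 in the body, 1.16 in the CpG-dense promoter region, 1.37 in the miR-371 hairpin stretch and 0.715 in the miR-302 hairpin stretch. The part of these coverage differences in the levels was not tested.

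Other microRNA families known from ESC and from differentiation were set beside the members. The miR-17 family clusters had 15 of 15 tested windows lower in reset cells, near the 93.1% of all hairpin windows, with a median that went from 94.0 to 35.7%. Windows of neighbouring hairpins in these clusters overlap and share calls, so they are not separate measurements. Their largest falls were in MIR19B1, from 94.7 to 11.3%, and MIR20A, from 93.7 to 11.7%. Of the let-7 family, which accumulates on differentiation, 9 of 10 tested windows were lower, also near that share, led by MIRLET7A2 (91.2 to 13.6%) and MIRLET7D (93.7 to 32.6%). All 5 of the miR-200 family, which maintains the epithelial state, were lower, where 93.1% of all were, and MIR141 (67.5 to 5.11%) and MIR200C (56.9 to 1.31%) fell most. The windows of MIR141 and MIR200C overlap, as do those of MIR200A and MIR200B, so they are not separate measurements.

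Among microRNAs of differentiated lineages, 7 of 17 tested windows were lower and 6 were higher, beside 93.1% lower and 1.04% higher among all hairpin windows. The largest falls were those of MIR133A1 (90.9 to 22.5%) and MIR145 (81.4 to 15.7%), from muscle. The 6 higher windows belong to MIR9-1 (3.37 to 10.6%), MIR9-3 (1.21 to 6.84%) and MIR124-2 (5.95 to 38.5%), from the nervous system, and to MIR10B (11.2 to 42.4%), MIR196A1 (12.5 to 48.0%) and MIR196A2 (18.2 to 32.6%), from the HOX clusters. For MIR196A2 the libraries of the groups overlapped. All 6 were at 18.2% or less in conventional cells, as were the miR-302 windows, which were at 0% in reset cells. The other 4 lineage windows were low in both cell types and did not pass the test, for instance MIR9-2 (1.39 and 1.69%) and MIR10A (6.73 and 7.43%). MIR124-1 was not placed.

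**Figure D5:**
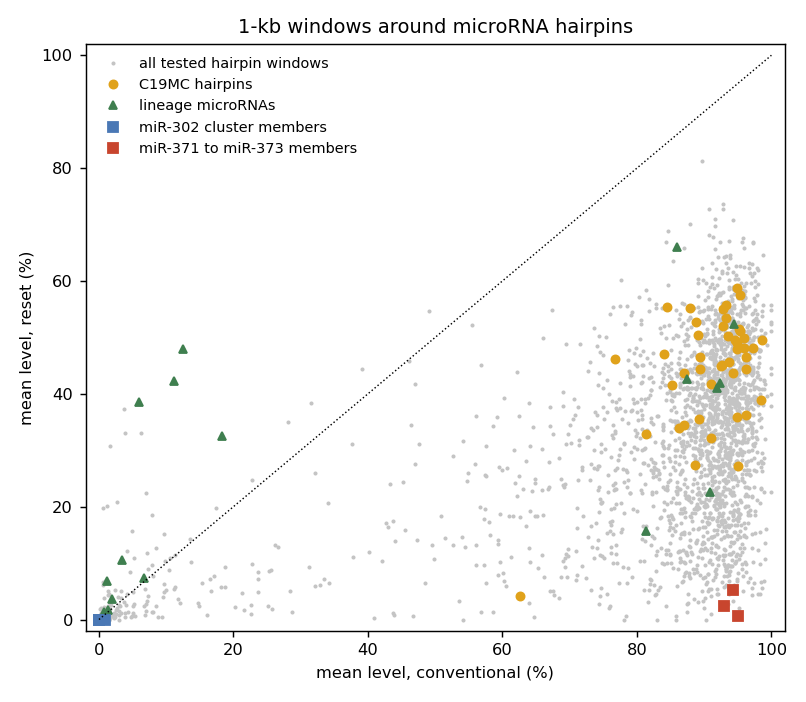
Mean methylation level (%) of 1-kb windows around microRNA hairpins in conventional (x axis) and reset cells (y axis), 3 libraries each; grey points are all tested hairpin windows, orange C19MC, green lineage microRNAs, and the dotted line marks equal levels. The miR-302 members (blue) sit at or near the origin, the miR-371 to miR-373 members (red) at the lower right with at most 5.25% in reset cells, and the C19MC hairpins mostly between 27.2 and 58.7% in reset cells.

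The promoters of 20 genes of microRNA processing and silencing, taken as 1000 bp before and 500 bp after the start, were low in both cell types. Of these, 11 were lower in reset cells and 1 was higher, beside 67.5 and 3.97% of all protein-coding promoters tested. The largest changes past the threshold were in AGO1 (21.1% ± 5.02 to 4.61% ± 1.47), DIS3L2 (15.6% ± 3.11 to 2.15% ± 1.90), AGO4 (14.8% ± 7.51 to 1.53% ± 0.0421) and PRKRA (12.7% ± 2.26 to 1.58% ± 0.514). AGO1 and AGO4 are Argonaute proteins that carry the mature strand, DIS3L2 degrades uridylated let-7 precursors, and PRKRA is a partner of DICER1. LIN28B, which blocks let-7 processing, was the higher promoter, at 0.781, 0.781 and 0% in conventional and 3.57, 5.09 and 4.26% in reset cells (adjusted p = 0.0111, quasi-binomial model). With promoters cut to 500 bp on each side of the start, 4 of the 20 were lower and PRKRA changed sign. AGO1, AGO4 and DIS3L2 then fell by 7.76, 4.62 and 2.41 points, each by less than over the longer promoters.

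The promoters of genes near the clusters differed in their starting level. LARP7, which contains the miR-302 hairpins, had 1.62, 1.08 and 1.64% in conventional and 0, 0.235 and 0.654% in reset cells (adjusted p = 0.0366, quasi-binomial model), a call that ended under several alternatives. DPRX, a homeobox gene upstream of C19MC, went from 89.7% ± 1.66 to 38.4% ± 7.68, close to the level of the 20 kb upstream of C19MC in which it lies. NLRP12, an inflammasome-related gene downstream of the miR-371 to miR-373 cluster, went from 92.6% ± 4.55 to 9.49% ± 3.69. ZNF331, an imprinted zinc finger gene upstream of C19MC, had 46.7, 41.2 and 54.6% in conventional and 4.02, 0.833 and 1.41% in reset cells, and NDUFA3 went from 19.7% ± 6.50 to 2.87% ± 0.814. MYADM (1.85 and 1.91%) did not pass the test.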

How the data were processed

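The authors prepared libraries from sonicated H9 DNA with methylated adapters, bisulfite treatment and amplification, used Trim Galore for trimming and mapped to GRCh37 using Bismark (0.9.0 in the submitters' processing notes; the paper names another version) and Bowtie2. A duplicate removal step is not given in the sources used here. Each deposited row gives, for 1 cytosine, raw counts of its methylated and its unmethylated calls, and the deposited percent that follows from them. Positions were counted from 0 (99.8% of them at a CpG) and are printed from 1.

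Here both strands of each CpG were added together, and a level is the percentage of methylated calls. Libraries held 70329213 to 98004161 calls, or 2.51 to 3.49 per CpG. Windows of 500 bp over chromosomes 1 to 22 and X, 1-kb windows around hairpins (GENCODE release 44 for GRCh37, 12 placed by RefSeq sequence) and promoters were tested where every library had at least 10 calls, with a quasi-binomial logistic model and likelihood-ratio F test, the dispersion squeezed with limma (3.58.1) and kept at 1 or more, and Benjamini-Hochberg adjustment over all features of a fit, threshold 0.05. The test was also run on simulated data in which only a small share of windows changed. Most windows changed in the real data, so that run does not measure the error rate here. Levels of parts were compared by two-sided exact permutation tests. CpG-dense stretches were merged 200-bp windows with at least 50% GC and a CpG ratio over 0.6 within 5 kb of the upstream bound of C19MC. The text names the members, extreme windows of each part, every window of the CpG-dense promoter region, the 2 largest falls and all rises per hairpin list, the 4 largest promoter changes and the neighbouring genes, of which 1 is not reported here. Members and lists were chosen with earlier results of these data known. The exception window of C19MC and that of the miR-371 to miR-373 cluster were named after their values were seen. Limits of 0 (3 calls) cover counting error only and take each call as independent. Neighbouring CpGs can share reads, so the true limits can be higher, above all where CpGs are dense.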

Additional observations from a re-analysis of the deposited data

How the results depend on the processing

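Each of the 3 clusters kept its direction under every alternative run, and 0 windows were higher in any of them. Over the genome 3405198 of 3529814 windows were lower with at least 5 calls, 465935 of 522158 with at least 20, and 2025314 of 2060730 with 1-kb windows. With at least 5 calls 22, 43 and 260 windows were lower in the miR-302, miR-371 and C19MC regions (of 30, 43 and 263 tested). In the miR-302 region this share was smaller than with at least 10 calls and smaller than over the genome. With at least 20 calls 5, 16 and 81 were lower (of 5, 16 and 82 tested). With 1-kb windows 23 and 139 were lower in the miR-371 and C19MC regions (of 23 and 139 tested). With 10 kb upstream 4 and 21 were lower in the miR-302 and miR-371 regions (of 6 and 21 tested). Leaving out 1 library gave 18 to 20, 37 to 38 and 225 to 234 lower (of 20 to 24, 38 to 40 and 227 to 237 tested). Over the genome these fits gave from 1926289 of 2021328 to 2172889 of 2273774 windows lower. For hairpin windows, at least 20 calls left 5 of the let-7 family and 4 of the lineage microRNAs lower. The others that had been lower had a library with fewer than 20 calls and were no longer tested. With 250 bp on each side, 4 of the lineage microRNAs were lower, and the number tested there is not given here. MIR512-1 passed with at least 5 calls, with 1000 bp on each side (-62.7 points) and without Reset replicate 3 (-31.5 points). Of the processing gene promoters, 4 were lower with 500 bp on each side. There DGCR8 (1.83 points), RAN (0.248), PRKRA (0.489), TNRC6A (0.861), TUT7 (0.566) and, among the neighbours, LARP7 (0.211) changed sign without passing. Leaving out 1 library gave 1 to 2 processing gene promoters that were higher. LARP7 lost its call without Conventional replicate 1 or 3 or Reset replicate 1 or 2, TNRC6A without Conventional replicate 1 or 3 or Reset replicate 1 or 3, and DICER1 without Conventional replicate 3 or Reset replicate 1 or 3. TUT4 (1.48 points) passed without Conventional replicate 1, and the miR-302 window at 113571501 to 113572000 (-6.07 points) without Conventional replicate 3. The cause was not tested.

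Over all tested windows the deviations of same-numbered libraries correlated at -0.001 to 0, and those of libraries with different numbers at -0.001 to 0.001. With few calls per window, this cannot tell whether same-numbered libraries were processed together. With the number as a block, 18 of 20 tested windows of the miR-302, 37 of 38 of the miR-371 and 221 of 225 of the C19MC region were lower. Over the genome 1841283 of 1982370 were. In the block fits 5 lineage microRNAs were higher (6 without the block, 4 to 6 with 1 library left out and 4 to 7 under the other alternatives), and TNRC6A and LARP7 lost their calls (adjusted p = 0.0743 and 0.0527, quasi-binomial model). In paired differences the CpG-dense promoter region fell by 93.2 points (exact sign-flip p = 0.25, the smallest possible with 3 pairs).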

Other observations

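Hairpins with a microRNA symbol other than MIR372 and a larger fall than MIR371A were MIR544B (98.6 to 5.51%), MIR4636 (97.2 to 5.61%), MIR1307 (97.4 to 6.44%) and MIR3119-2 (92.8 to 2.08%), on chromosomes 3, 5, 10 and 1. They were picked after their values had been seen and have no test of their own beyond the fit over all hairpin windows. None lies in the clusters described above.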
